A study of Mus musculus with 12 samples.

Results

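RNA-seq libraries of G1-phase mouse embryonic stem cells (ESCs) were examined for 8 genes of the integrated stress response: Atf4, Ddit3, Atf3, Trib3, Asns, Sars, Slc7a11 and Chac1. They were taken by symbol from the 24881 symbols of the deposited table, and 8 of 8 were found there and passed the filter on low values that left 12572 genes to test. The cells were R1 ESCs carrying the FUCCI reporter, a pair of fluorescent proteins that follow the cell cycle phase, and G1-phase cells were collected by flow sorting in every group. The 8 libraries form 4 groups of 2, WT and P53-/- cells each grown in serum or in 2i. The P53-/- cells were CRISPR/Cas9 clones made by cutting an exon of Trp53, and the study names clones 1 and 2 for RNA-seq without saying which clone gave which library. The serum culture is serum medium with the cytokine LIF. 2i is a serum-free medium (N2B27) with LIF and inhibitors of MEK and GSK3, and its ESCs are held to represent the ground state of pluripotency. The cultures thus differ in their medium as well as in the inhibitors. The question put to these libraries was how the response genes differ between the cultures and whether the loss of P53 changes them in either one.

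In the integrated stress response, kinases that sense amino acid shortage, unfolded proteins, haem shortage or viral RNA phosphorylate the initiation factor eIF2, which slows general protein synthesis while the mRNA of the transcription factor ATF4 is translated more. ATF4 then switches on genes for amino acid synthesis and uptake, tRNA charging and glutathione balance, together with further regulators such as CHOP (from Ddit3), ATF3 and TRIB3. Because much of the control of ATF4 lies in translation, its mRNA level does not measure its activity, and no protein was measured here.

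ATF4 pairs with C/EBP proteins on a composite element written here as TGATGNAA, or TTNCATCA on the opposite strand. In the RefSeq promoters (GRCm38.p6), the 250 bases before the start of 4 of the 8 genes hold a match (Atf3, Asns, Chac1 and Slc7a11), against 3.45% of 32851 promoters, and Trib3 has a match shortly after its start. The 5 stretches are shown because they are the members of the group that carry these letters next to the start. The capitals mark the match, each stretch reads 5′ to 3′ along the strand of its gene, and the coordinates are those of GRCm38.p6 and not of mm9, the build named for the deposited values.
Atf3, chr1:191183410-191183469, minus strand: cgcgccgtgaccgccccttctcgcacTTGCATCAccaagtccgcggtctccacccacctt
Trib3, chr2:152344028-152344057, minus strand: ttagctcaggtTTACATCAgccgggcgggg
Asns, chr6:7693210-7693269, minus strand: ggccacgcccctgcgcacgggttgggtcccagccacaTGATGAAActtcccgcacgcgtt
Chac1, chr2:119351023-119351082, plus strand: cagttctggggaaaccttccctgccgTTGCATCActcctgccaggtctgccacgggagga
Slc7a11, chr3:50443637-50443696, minus strand: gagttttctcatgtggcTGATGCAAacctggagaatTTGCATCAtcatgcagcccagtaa

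The match lies 23 bases before the start of Asns, 110 before that of Atf3 and 193 before that of Chac1. Slc7a11 has a pair of matches on opposite strands, 66 and 47 bases before its start. The match of Trib3 lies 15 bases after its start. The windows of Atf4, Ddit3 and Sars hold none of these letters, which says nothing on whether ATF4 binds there. A match is a description of the letters and was not tested as a binding site.

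The genotype and cell type were checked in the same table. Trp53 was at 26.8 and 33.7 FPKM (fragments per kilobase of transcript, scaled to the mapped fragments of the library) in WT 2i against 7.25 and 1.88 in P53-/- 2i, and at 77.6 and 75.1 in WT serum against 16.8 and 3.68 in P53-/- serum. Its log2 fold change was -2.98 in 2i (limma adjusted p 0.0547) and -3.26 in serum (adjusted p 0.15, not called). The P53 target Cdkn1a, which encodes P21, fell in both cultures, with a log2 fold change of -2.24 in 2i and -2.18 in serum. ESC markers were above 1 FPKM for 8 of 8 genes in every group, and the summed level of 8 fibroblast markers was 10.1 to 18.8 FPKM. Of these 8, Col3a1 and Postn were at 0 in every library, but Fbln1 was at 4.80 to 17.5 FPKM and rose in 2i (log2 fold change 1.08 in WT and 1.41 in P53-/-), and Thy1 was at 7.55 to 10.4 in serum and 0.343 to 0.972 in 2i. Their part in the differences between cultures was not tested. The summed primitive endoderm and neuroectoderm markers were at 1.28 to 4.36 and 23.0 to 42.4 FPKM. Of those tested, Gata4 (log2 fold change 1.19), Nes (-0.74) and Map2 (-2.43) were called between cultures in WT, and Sox1 and Tubb3 were not. Between genotypes in 2i, Tubb3 was called (-0.61, limma adjusted p 0.054), and Gata4, Sox1, Nes and Map2 were not. Their part in the reported differences was not tested. The depth estimated from the commonest step of low FPKM values ran from 5210000 to 13300000 fragments, known only up to a constant shared by all libraries. It was lowest in WT 2i library 2 and P53-/- 2i library 2. The summed FPKM of a library was 6.70e+06 to 7.76e+06 in 2i. In serum it ran from 1.62e+07 in WT library 1 to 8.03e+07 in WT library 2. The source of this difference was not tested. In bulk RNA, fewer cells with a transcript and less transcript per cell cannot be told apart. Apart from the naming of a pair of P53-/- clones, without their libraries, the sources do not say that the 2 libraries of a group were separate cultures, so p-values measure the spread between these libraries, which may be technical.

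Among the regulators, Atf4 was abundant in every library, at 148 and 127 FPKM in WT serum, 152 and 101 in P53-/- serum, and 285 and 256 in WT 2i, against 294 and 272 in P53-/- 2i. The 4 libraries in 2i were above the 4 in serum, while the genotypes overlapped within each culture. Ddit3, which encodes the pro-apoptotic factor CHOP, was at 5.86 and 3.76 FPKM in WT serum, 5.66 and 2.53 in P53-/- serum, and 37.1 and 32.1 in WT 2i, against 77.6 and 49.0 in P53-/- 2i. Its highest library was 30.7 times its lowest, the widest range of the 8 genes, and P53-/- 2i lay above WT 2i without overlap. Of the 1713 exon bases of Ddit3 in GENCODE M21, 68 are shared with Mars on the opposite strand, and whether counting used strand is not given in the sources used here. Mars itself was at 88.0 to 149 FPKM across the libraries.

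Atf3, a stress-induced member of the ATF/CREB family that also responds to growth factor signaling and to P53, was at 1.57 and 1.63 FPKM in WT serum and at 1.30 and 1.39 in P53-/- serum. In 2i, it was at 31.5 and 25.7 FPKM in WT and at 11.1 and 9.71 in P53-/-. None of the 4 groups overlapped with its neighbour in this order, and WT 2i was the highest. Trib3, a pseudokinase that restrains ATF4 and CHOP in a feedback loop, was at 14.8 and 16.8 FPKM in WT serum, 15.0 and 10.1 in P53-/- serum, and 18.5 and 22.3 in WT 2i, against 32.8 and 26.2 in P53-/- 2i. The serum groups overlapped, and P53-/- 2i lay above WT 2i.

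Among the targets, Asns, the enzyme that makes asparagine, was the most abundant of the 8 genes, with a mean FPKM over the libraries higher than that of 98.1% of the genes tested. It was at 291 and 261 FPKM in WT serum, 304 and 215 in P53-/- serum, and 1006 and 787 in WT 2i, against 865 and 777 in P53-/- 2i. The cultures were separated and the genotypes overlapped in both. Sars, the cytosolic seryl-tRNA synthetase, was at 79.3 and 70.2 FPKM in WT serum, 73.8 and 59.6 in P53-/- serum, and 93.1 and 113 in WT 2i, against 153 and 137 in P53-/- 2i. Its order was that of Trib3, with overlapping serum groups and P53-/- 2i above WT 2i.

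Chac1, which breaks down glutathione, was at 6.25 and 6.26 FPKM in WT serum, 7.80 and 7.46 in P53-/- serum, and 18.3 and 19.8 in WT 2i, against 22.2 and 18.0 in P53-/- 2i. The 2i groups overlapped and the serum groups did not. Slc7a11, the cystine transporter subunit that feeds glutathione synthesis, was close to the filter on low values, with a mean FPKM above that of 2.19% of the genes tested. Its group means were below the filter's 0.5 FPKM in WT serum (0.189), P53-/- serum (0.490) and WT 2i (0.456). It passed only through P53-/- 2i, with a mean of 1.28. It was at 0.132 and 0.247 FPKM in WT serum, 0.773 and 0.207 in P53-/- serum, and 0.494 and 0.419 in WT 2i, against 1.15 and 1.40 in P53-/- 2i. As a ratio, its P53-/- serum libraries were farther apart than any other pair among the 8 genes, and one of them lay above WT 2i.

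**Figure D1:**
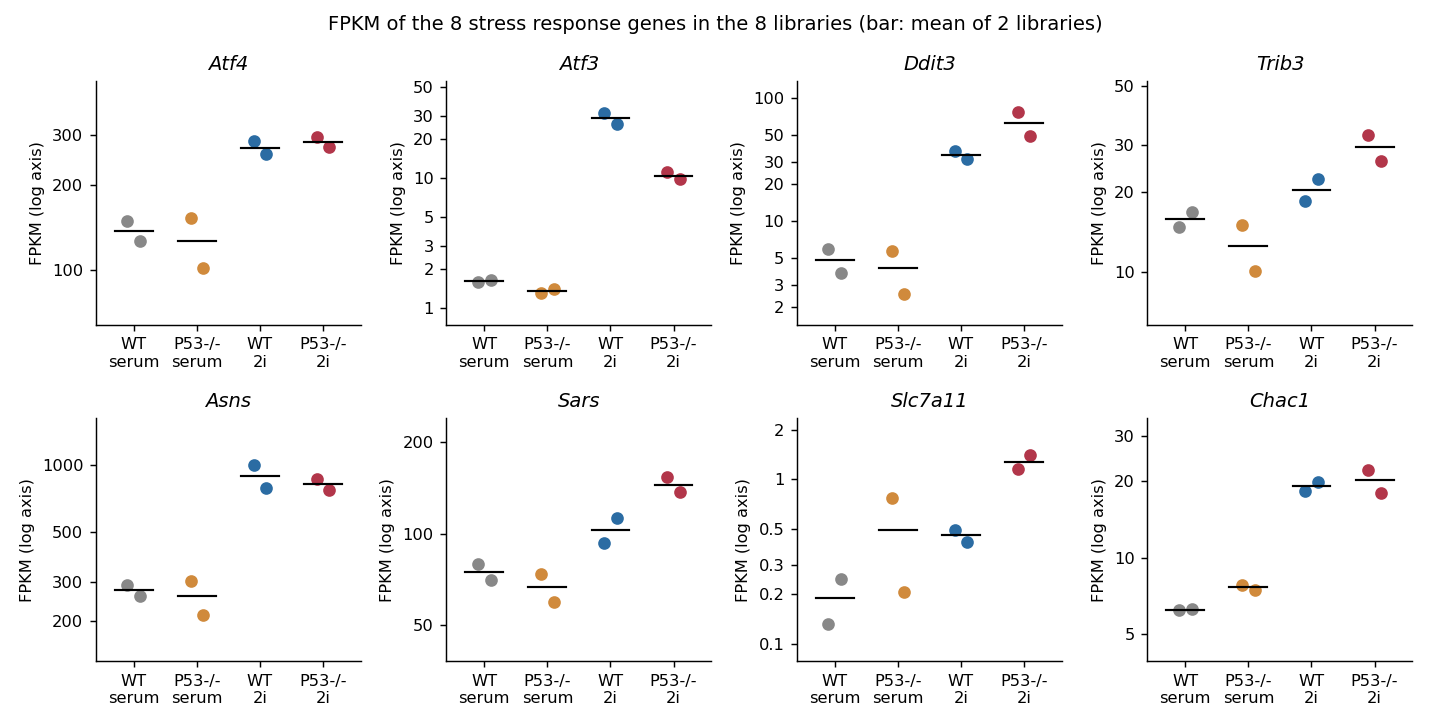
FPKM on a log axis for each of the 8 genes, with 2 points per group for the libraries and a bar at their mean. Atf3 is highest in WT 2i at 31.5 and 25.7 FPKM, while Ddit3, Trib3, Sars and Slc7a11 are highest in P53-/- 2i.

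In WT ESCs, 5 of the 8 response genes were called higher in 2i than in serum. A gene was called when limma's adjusted p was below 0.1 and its fitted fold exceeded 1.5, on the log2(FPKM + 0.1) scale, which understates the change of low genes. Atf4, Ddit3, Atf3, Asns and Chac1 rose, and 0 of 8 fell, beside 27.2% of all tested genes called higher and 28.6% called lower. The median log2 fold change of the 8 genes was 1.28, against -0.02 over all genes tested. Atf3 had the largest change of the 8, 17.9-fold between the group means (log2 fold change 4.07 ± 0.17 SE, limma adjusted p 1.06e-05), above that of 98.9% of the genes tested. Ddit3 was 7.20-fold higher (2.85 ± 0.39, adjusted p 0.000547), Asns 3.25-fold (1.69 ± 0.21, adjusted p 0.000334) and Chac1 3.05-fold (1.59 ± 0.14, adjusted p 8.92e-05). Atf4 itself was 1.97-fold higher (0.98 ± 0.20, adjusted p 0.00381), a smaller log2 fold change than those of Atf3, Ddit3, Asns and Chac1.

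The other 3 genes were not called in WT. Sars had an adjusted p of 0.0365 but a fitted fold of 1.37, under the threshold on size. Trib3 had a log2 fold change of 0.37 ± 0.21 (limma adjusted p 0.172) and Slc7a11 one of 0.97 ± 0.58 (adjusted p 0.184). The WT groups did not overlap between cultures for 8 of 8 genes, each higher in 2i, beside 81.7% of all tested genes that did not overlap in either direction.

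In P53-/- ESCs, 8 of 8 genes rose in 2i against serum, beside 28% of all tested genes called higher and 30.1% called lower. The 8 include Slc7a11, which passed the filter only through its P53-/- 2i libraries, so its rise adds no support to this count. The median log2 fold change of the 8 genes was 1.39, against -0.03 over all genes tested. Ddit3 had the largest, 15.5-fold between the group means (log2 fold change 3.99 ± 0.39 SE, limma adjusted p 0.000107), followed by Atf3 at 7.71-fold (2.85 ± 0.17, adjusted p 2.06e-05) and Asns at 3.17-fold (1.68 ± 0.21, adjusted p 0.000297). Chac1 rose 2.63-fold, Trib3 2.35-fold, Atf4 2.23-fold and Sars 2.18-fold, with limma adjusted p-values from 0.000138 for Chac1 to 0.00151 for Trib3. The call of Slc7a11 (1.41 ± 0.58, adjusted p 0.0664) was lost without either P53-/- 2i library, with adjusted p-values of 0.133 and 0.201, and without P53-/- serum library 2, with a log2 fold change of 0.65 and an adjusted p of 0.279. The groups did not overlap for 8 of 8 genes, beside 81.8% of all tested genes.

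**Figure D2:**
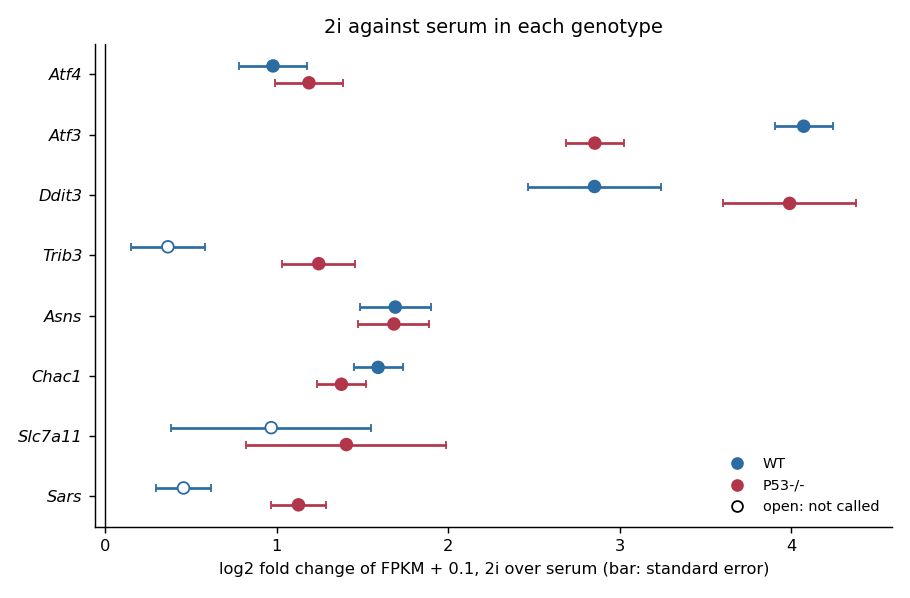
Log2 fold change of FPKM + 0.1 for 2i over serum in WT and in P53-/- ESCs, with the standard error as bars, filled points for called genes and open points for genes not called. All 8 genes lie above 0 in both genotypes, with Atf3 at 4.07 in WT and 2.85 in P53-/-, and Ddit3 at 2.85 and 3.99.

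Between genotypes in 2i, Atf3 was the one gene of the 8 that passed the test. It fell 2.76-fold in P53-/- 2i ESCs, from a mean of 28.6 ± 4.14 FPKM (SD, n = 2) in WT to 10.4 ± 0.95 (SD, n = 2), with a log2 fold change of -1.45 ± 0.17 SE and a limma adjusted p of 0.00435. The 8 genes thus counted 0 called higher and 1 called lower, beside 4.36% and 5.97% of all tested genes. The call of Atf3 held in 19 of 19 alternative analyses, with log2 fold changes from -1.60 to -1.30. In a fit of the compared groups only, the limma adjusted p of Atf3 was 0.0842, close to the threshold of 0.1. Leaving out a serum library cannot move the estimate, which stayed at -1.45. Atf3 in P53-/- 2i still remained 7.71-fold above its level in P53-/- serum.

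The other 7 genes were not called in this comparison. Sars had a log2 fold change of 0.50 ± 0.16 (limma adjusted p 0.0995) and a fold of 1.41, under the threshold on size, and Trib3 one of 0.53 ± 0.21 (adjusted p 0.174). Ddit3 was at 0.84 ± 0.39 (adjusted p 0.229) and Slc7a11 at 1.31 ± 0.58 (adjusted p 0.212), each higher in both P53-/- libraries than in both WT libraries and neither past the test. Atf4 was at 0.07 ± 0.20, Chac1 at 0.07 ± 0.14 and Asns at -0.12 ± 0.21, with overlapping libraries. The groups did not overlap for 5 of the 8 genes, 4 of them higher in P53-/-, beside 53.6% of all tested genes. The 4 include Slc7a11, which passed the filter only through P53-/- 2i. The median over the 8 genes was 0.285, against 0.02 over all genes tested. The comparison shares its WT 2i libraries with the culture comparison in WT.

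In serum, limma called 0 of the 8 genes between genotypes, and 0 had an unadjusted p under 0.05, beside 0.135% of all tested genes called higher and 0.883% called lower. Atf3 was at a log2 fold change of -0.23 ± 0.17 (adjusted p 0.642), Trib3 at -0.35 ± 0.21 (adjusted p 0.566) and Chac1 at 0.28 ± 0.14 (adjusted p 0.495). Slc7a11 had the widest error, at 0.87 ± 0.58. Library 1 of P53-/- serum was above library 2 for 7 of the 8 genes, beside 50.9% of all tested genes. The median log2 difference was 0.53 over the 8 genes against 0.01 over all genes tested. The same count, 7 of 8, held between the libraries of P53-/- 2i, beside 52.8%, with a median of 0.17 against 0.02. Trp53 was also higher in library 1 in both P53-/- groups. In WT 2i, library 1 was above library 2 for 5 of 8 genes, beside 50.6%, with a median of 0.175 against 0.01. In WT serum, library 1 was above for 4 of 8, beside 47%, with a median of 0.08 against -0.01. Without P53-/- serum library 2, the log2 fold changes of Atf4, Ddit3 and Asns turned from -0.14, -0.30 and -0.11 to 0.15, 0.26 and 0.14.

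**Figure D3:**
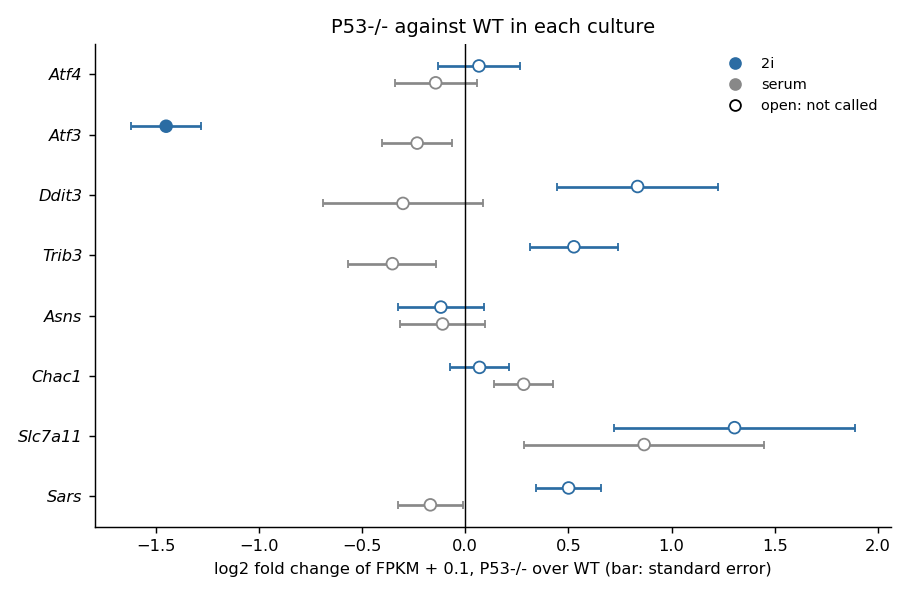
Log2 fold change of FPKM + 0.1 for P53-/- over WT in 2i and in serum, with the standard error as bars, filled points for called genes and open points for genes not called. Atf3 in 2i, at -1.45, is the one filled point, and Atf4, Trib3, Ddit3 and Sars lie above 0 in 2i and below 0 in serum, although the signs of Atf4 in both cultures and of Ddit3 in serum turned when single libraries were left out.

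The size of the genotype difference was compared between 2i and serum with an interaction term. limma called 0 of the 8 genes, beside 0.103% of all tested genes called in each direction, and 3 had an unadjusted p under 0.05, as had 1651 of the 12572 genes tested. The difference, 2i minus serum, was -1.22 ± 0.24 for Atf3 (adjusted p 0.16), 0.67 ± 0.22 for Sars (adjusted p 0.283) and 0.88 ± 0.30 for Trib3 (adjusted p 0.295). For Ddit3 it was 1.14 ± 0.55 (adjusted p 0.429). The fall of Atf3 in 2i, where it was called, is therefore not shown to differ from that in serum, where the 4 libraries lay between 1.30 and 1.63 FPKM.

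Some immediate early genes, which respond within minutes to growth factor and stress signaling, fell with Atf3 in P53-/- 2i ESCs. Fos went from 37.0 and 39.4 FPKM in WT to 7.45 and 7.55 in P53-/- libraries (log2 fold change -2.33, limma adjusted p 0.0096). Egr1 went from 6.84 and 1.92 to 0.335 and 0.298 FPKM (-3.17, adjusted p 0.0206), and Junb from 26.6 and 26.2 to 15.4 and 15.4 (-0.77, adjusted p 0.0124). Jun, which pairs with ATF3, fell from 5.96 and 6.44 to 2.90 and 3.50 FPKM (-0.94, adjusted p 0.0891). With Spry2, 4 of the 11 tested immediate early and ERK feedback genes fell in P53-/- 2i ESCs, beside 5.97% of all tested genes, in a list that does not count Jun. Of the 7 that were not called, Ier2 was at -0.50 (limma adjusted p 0.1), while Ier3 was at 0.65 (adjusted p 0.348) and Dusp4 at 0.91 (adjusted p 0.12). In serum limma called 0 of the 11, beside 0.883% of all tested genes called lower. Their part in the fall of Atf3 was not tested.

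**Figure D4:**
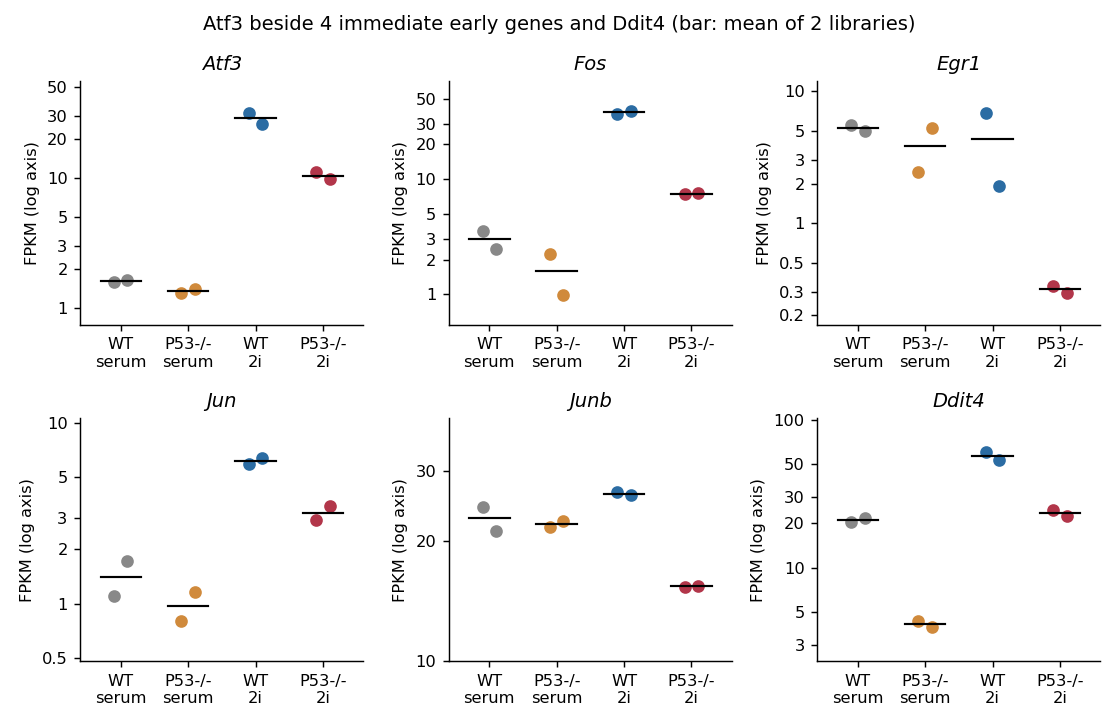
FPKM on a log axis for Atf3, for the immediate early genes Fos, Egr1, Jun and Junb, and for the ATF4 and P53 target Ddit4, with 2 points per group and a bar at their mean. Atf3, Fos, Jun and Ddit4 are highest in WT 2i, and Egr1 is lowest in P53-/- 2i at 0.335 and 0.298 FPKM.

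The rest of the pathway was read from 9 lists that together hold 130 further genes, of which 123 were tested. In WT ESCs, 29 of the 123 rose in 2i against serum and 26 fell, both smaller shares than the 27.2% and 28.6% of all tested genes, and their median log2 fold change was 0.02. In P53-/- ESCs, 35 rose and 22 fell, beside 28% and 30.1% of all tested genes, so that the pathway as a whole did not stand out in its number of calls higher in 2i.

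Lists are described by their counts, to be read beside the 27.2% of all tested genes called higher and the 28.6% called lower in WT. Of 12 genes of serine, proline, asparagine and one-carbon synthesis, 6 rose and 0 fell in WT 2i, among them Pycr1 for proline synthesis (log2 fold change 1.69), Cth for cysteine synthesis (1.61) and the alanine transaminase Gpt2 (1.23). Of 16 other stress-induced ATF4 or CHOP targets, 9 rose and 2 fell, with the stress cytokine Gdf15 at 2.22, the autophagy receptor Sqstm1 at 1.92 and Rab39b at -1.67. Of 11 bZIP partners and co-regulators, 6 rose and 1 fell, led by Nupr1 at 3.06, Jund at 2.21 and Jun at 2.09. Of 8 NRF2 target genes, 2 rose and 1 fell, with the quinone reductase Nqo1 at 3.67, the glutathione reductase Gsr at 1.16 and Gclm, a subunit of the enzyme that starts glutathione synthesis, at -1.38.

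The genes upstream of ATF4 and in the other arms of the unfolded protein response were counted in the same way. Of 16 eIF2 kinases, phosphatase subunits and eIF2 or eIF2B subunits, 1 rose and 6 fell in WT 2i. The gene that rose was Eif2b5, the catalytic subunit of the exchange factor that eIF2 phosphorylation inhibits, from 65.7 and 63.6 to 274 and 251 FPKM (log2 fold change 2.02, limma adjusted p 2.6e-05). The phosphatase subunit Ppp1r15b fell by 1.07 on the log2 scale and the eIF2 subunit Eif2s3x by 0.95. Of 19 genes of the XBP1 and ATF6 arms, 1 rose and 5 fell, the latter a share near that of all tested genes, with the endoplasmic reticulum chaperones Dnajb9 at -1.75, Hsp90b1 at -1.25 and Hyou1 at -0.99.

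Genes of amino acid uptake and tRNA charging, which ATF4 also serves, were counted next. Of 10 amino acid transporters, 2 rose and 3 fell in WT 2i, the 3 being Slc38a2 (log2 fold change -1.95), Slc38a1 (-1.93) and Slc7a1 (-1.44), and the median of the list was -0.10. The 3 that fell are a share near the 28.6% of all tested genes. Of 20 genes of tRNA charging, 1 rose and 3 fell in WT 2i, with Qars at 0.72, Rars at -0.80 and the tRNA exporter Xpot, which is no synthetase, at -0.65. In P53-/- ESCs, the transporters had 3 called higher and 3 lower, and tRNA charging 5 higher and 1 lower, beside 28% of all tested genes called higher and 30.1% called lower, so that neither count of higher calls stood apart from that share. Of 11 immediate early and ERK feedback genes, 1 rose and 5 fell, with Fos at 3.63 against the MEK-ERK feedback genes Spry4 at -7.31 and Spry2 at -2.62.

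**Figure D5:**
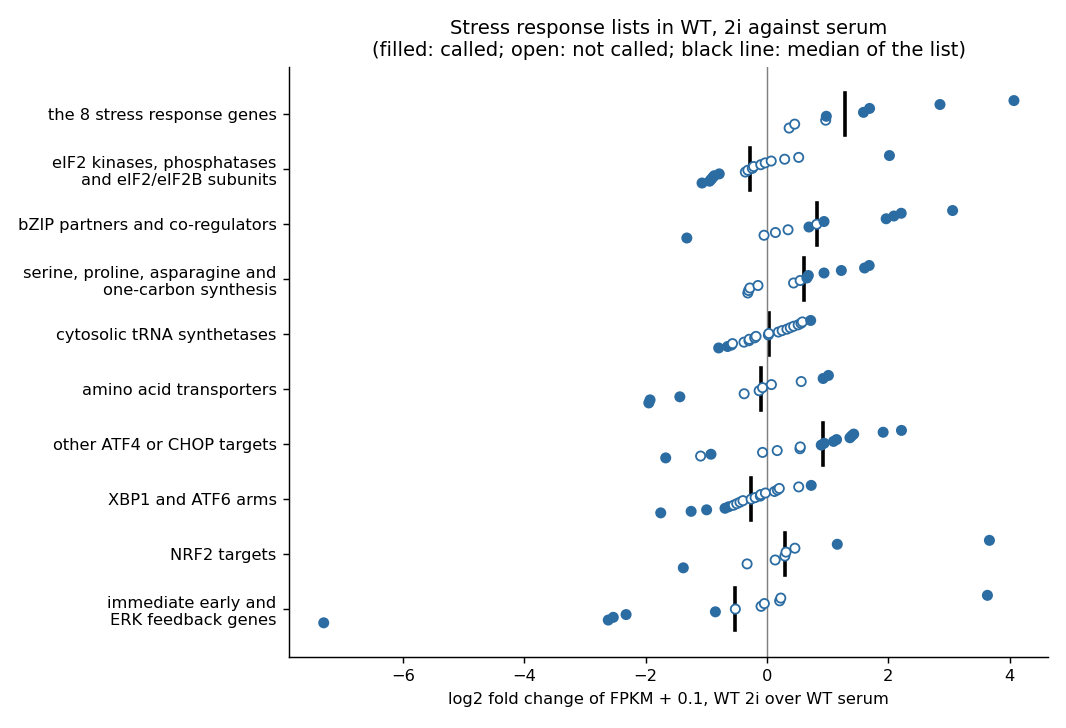
Log2 fold change of FPKM + 0.1 for WT 2i over WT serum, 1 point per tested gene, by list, filled where called and open where not, with a black line at the median of each list. The 8 stress response genes have the highest median, 1.28, while the lists of eIF2 factors, of amino acid transporters, of the XBP1 and ATF6 arms and of immediate early genes have medians below 0.

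Between genotypes, 5 of the 123 pathway genes rose and 9 fell in P53-/- 2i ESCs, counts near the 4.36% and 5.97% of all tested genes. In P53-/- serum ESCs, limma called 0 higher and 4 lower, beside 0.135% and 0.883% of all tested genes, and 18 of the 123 had an unadjusted p under 0.05, as had 1422 of the 12572 genes tested. The 4 that fell in serum also fell in 2i, and each is also known as a P53 target. These were Ddit4, an inhibitor of mTORC1 (log2 fold change -1.27 in 2i and -2.30 in serum), Sesn2, a leucine sensor (-1.37 and -1.49), the death receptor gene Tnfrsf10b (-1.65 and -1.54) and Cdkn1a. In 2i, Ddit4 was at 60.3 and 53.8 FPKM in WT and at 24.8 and 22.4 in P53-/-, and in serum at 20.4 and 21.7 against 4.37 and 4.01. The 5 that rose in P53-/- 2i were Gpt2 (0.97), the transporter gene Slc1a4 for alanine, serine and cysteine (0.91), the secreted glycoprotein gene Stc2 (0.78), Psph for the last step of serine synthesis (0.73) and Gsr (0.59). As with Atf3, the interaction called 0 of the 123 genes, and 12 had an unadjusted p under 0.05, a smaller share than the 1651 of 12572 over all genes tested. With 2 libraries a group, counts here moved with single libraries: the 14 called in 2i became 9 without P53-/- 2i library 2 and 5 in a fit of the compared groups only, and the 4 in serum became 2 without WT serum library 1 and 1 without WT serum library 2.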

How the data were processed

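Total RNA of G1-sorted cells was depleted of ribosomal RNA, reverse-transcribed with random primers and made into stranded libraries. The authors deposited FPKM values, 1 column per library. The submitters' processing notes name STAR, Cufflinks, DESeq2 and mm9 without versions or roles, and the annotation and the use of strand in counting are not given in the sources used here. Columns name genotype and culture only, so libraries are numbered by column order and carry no clone or replicate number. P21-/- libraries and the WT 2i libraries made with them, 4 of the 12 samples, were not analysed here.

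The filter kept the 12572 of 24881 symbols whose FPKM averaged 0.5 or more over the 8 libraries. One fit of the 4 groups was made on log2(FPKM + 0.1) values with limma (version 3.58.1, R 4.3.3) and a variance trend, with Benjamini-Hochberg adjustment over all genes tested. As in the study, a call needed an adjusted p below 0.1 and a fold above 1.5. The script was tested on simulated data. Depth was estimated from the most frequent low value of FPKM times gene length (GENCODE M21) among genes with a single transcript. Intervals cover no counting error of single genes. Alternatives were another pseudocount, filter, scaling, variance prior, threshold and set of samples, and each library left out. Values centred on chromosome medians were added after seeing the data. The 8 genes, the lists and the tests were chosen with earlier results of these data known. The text names all 8 genes, every pathway gene called between genotypes (at most 5 per list) and at most 3 of the largest called changes per list between cultures in WT. Genes with the most similar profile were the 3 with the smallest root mean square difference of centred log2 values. Those of Trib3 are not reported here. Of the lists, Fosl1, Fgf21, Cdsn, Osgin1, Fosb and Egr2 were below the filter, and Selk had no matching symbol. Promoters came from RefSeq (GRCm38.p6), with 8 of 8 genes matched, and exon overlaps from GENCODE M21.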

Additional observations from a re-analysis of the deposited data

How the results depend on the processing

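No paired analysis was possible because the columns carry no replicate number. Calls of the 8 genes between genotypes in 2i ranged from 1 to 2 when single libraries were left out, 2 (Atf3 and Sars) without WT 2i library 2. The interaction called 1 of them, Atf3 (adjusted p 0.0943), with a pseudocount of 1. Of the 123 pathway genes, calls in 2i were 5 in a fit of the compared groups only and 9 to 16 with single libraries left out, and calls in serum were 2 in a fit of the compared groups only and 1 to 4 with single libraries left out. The interaction called 1 pathway gene, Ddit4, with values centred on chromosome medians. Fits of the compared groups and those without a library hold fewer libraries, and the cause of the other shifts was not tested.

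Changes of sign touched genes that were not called. With quantile normalization, the genotype effect in 2i was -0.116 for Atf4 and -0.00894 for Chac1. With single libraries left out, the genotype effect in 2i ranged from -0.0101 to 0.143 for Atf4, from -0.295 to 0.0591 for Asns and from -0.08 to 0.22 for Chac1. In serum it ranged from -0.44 to 0.15 for Atf4, from -0.87 to 0.26 for Ddit3 and from -0.36 to 0.14 for Asns. The interaction ranged from -0.0865 to 0.506 for Atf4, from -0.26 to 0.24 for Asns and from -0.32 to 1.19 for Slc7a11, and was 0.0184 for Asns with median-ratio scaling and 0.0479 with chromosome centring. Between cultures, Sars in WT was called with quantile normalization, with chromosome centring and without WT 2i library 1, and Slc7a11 in WT without either P53-/- serum library. Slc7a11 in P53-/- was also not called with quantile normalization or at an adjusted p under 0.05, and was not tested at a mean FPKM of at least 1. Calls of Atf4, Atf3, Ddit3, Asns and Chac1 between cultures held in 19 of 19 alternatives in both genotypes. With 2 libraries a group and a lone library assumed to vary like the others when its partner was left out, small differences could not be resolved.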

Other observations

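Genes whose centred log2 profile over the 8 libraries lay closest to 7 of the 8 genes, among 12363 compared, are given as a description with no test. Sars and Trib3 were near each other, at a root mean square difference of 0.134 log2 units. Nearest to Sars were Gnai2 (0.0896), Fam129a (0.106) and Tmx2 (0.108). For Atf4 they were Acaa1a (0.0748), Exosc4 (0.0778) and Fkbp15 (0.0802), and for Asns AI413582 (0.0859), Chmp1a (0.107) and Tbc1d13 (0.109). For Chac1 they were Zkscan6 (0.105), Galt (0.109) and Urm1 (0.12). Atf3 and Ddit3 had more distant neighbours, Tbx2 (0.206), Ccdc13 (0.269) and Cemip (0.287) for Atf3, and Ggt7 (0.187), the lipid droplet gene Plin2 (0.25) and Srrm4os (0.293) for Ddit3. Slc7a11 had Arsg (0.286), 4930461G14Rik (0.351) and Epha7 (0.365).

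Outside the 8 genes, 218 tested genes carry TGATGNAA or its opposite strand in the 250 bases before their start. In WT, 30.3% of them were called higher in 2i against serum, beside 27.7% of the 9765 tested genes with a promoter, and 26.1% lower, beside 28.3%. In P53-/-, 34.4% were called higher, beside 28.8%, and 31.2% lower, beside 29.6%. Between genotypes in 2i, 5.96% of the carriers were called higher and 6.42% lower, beside 4.42% and 5.89%. The pathway lists were searched among their genes with a RefSeq promoter, tested or not, which are fewer than the lists hold. Carriers were 3 of 12 such genes of tRNA charging (Aars, Gars and Tars) and 3 of 14 other stress-induced targets (Fgf21, Vldlr and Herpud1). The others were Pycr1 and Got1, 2 of 10 such genes of serine, proline, asparagine and one-carbon synthesis, with Nupr1 and Eif2s3x. Fgf21 was below the filter and is not one of the 218. The list genes given here were named after the search and were not chosen for their values.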
